A study of Homo sapiens with 2 samples.

Results

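The genes of the lipid-sensing nuclear receptors PPARA, PPARD, PPARG, RXRA, RXRB, NR1H2, NR1H3, HNF4A and ESRRA, and of the coactivator PPARGC1A, were followed in colorectal cancer cells with reduced LYAR. Members were the probe sets whose annotated gene name, checked through the gene ID, was one of these symbols. This gave 10 of the 23619 genes on the array and 34 of its 45033 probe sets. The material was HCT15, an established line of human colorectal cancer cells. The knockdown cells carried LYAR-shRNA and the control cells scramble-shRNA. Both were stable lines made with a lentiviral hairpin vector and sorted on GFP, so the control shares the infection and the sort. The treatment notes mention more than 1 LYAR hairpin without naming the one used. Each group was hybridised to 1 single-colour array, so no test could be made, every difference below compares 2 arrays, and the only measure of spread comes from probe sets of the same gene.

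Nuclear receptors are transcription factors that change their partners when a small fat-soluble molecule binds them. PPARs respond to fatty acids, the liver X receptors NR1H2 and NR1H3 to oxysterols, and both bind DNA as pairs with a retinoid X receptor (RXR). HNF4A binds DNA as a pair with itself and is a main regulator of intestinal and hepatic epithelial genes, while ESRRA, an orphan receptor, acts with the coactivator PPARGC1A on genes of mitochondrial metabolism.

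LYAR itself measured 1036 with LYAR-shRNA and 1925 with scramble-shRNA, 53.8% of the control. This is a log2 difference of -0.89 from 1 probe set, under 2-fold. Random control probes averaged 30.3 and 32.7 on these arrays, and a value under 2 times that level (60.7 and 65.4) is treated here as a bound, not a measurement. Of 11 colon epithelial markers 9 passed the intensity filter, with KRT20 and CDX1 near the random probes, and their summed level was 116199 and 118678. Markers of other cells were mostly dim: 1 of 6 adipocyte, 1 of 6 hepatocyte, 2 of 6 macrophage, 1 of 6 fibroblast and 0 of 5 embryonic kidney or neuronal markers passed. Their summed levels were 642 and 896 for adipocyte, 336 and 342 for hepatocyte, 489 and 983 for macrophage, 423 and 319 for fibroblast and 239 and 198.5 for kidney or neuronal markers, and their part in the values below was not tested. ADIPOQ, which marks adipocytes, averaged 33.7 on both arrays.

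None of the 8 genes that could be measured averaged a 2-fold difference between the arrays, and PPARD and PPARGC1A were below the bound on both. In bulk RNA, fewer cells with a transcript and less of it per cell cannot be told apart. Of the 10 genes, 8 passed the intensity filter, which asks that a gene's value on the brighter array reach 105.9, the median level of all genes. Of these 8, 5 were higher and 3 lower on the LYAR-shRNA array, with 0 past 2-fold in either direction. Among all 12682 passing genes, 5.06% were higher by 2-fold or more and 3.56% lower by as much. At higher signal these shares were smaller, with 10.6% and 7.97% in the dimmest 4227 genes, 3.48% and 1.94% in the middle 4227, and 1.16% and 0.781% in the brightest 4228. PPARA, PPARG and HNF4A lay in the dimmest, RXRA, RXRB and NR1H2 in the middle, and NR1H3 and ESRRA in the brightest group. The 10 genes had a median log2 difference (LYAR-shRNA minus scramble-shRNA) of 0.03, and all passing genes one of 0.05 with an SD of 0.60. PPARG stood furthest from 0, at 0.95, and the other 7 genes that passed lay from -0.29 to 0.23.

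At the level of probe sets the picture was wider. In 28 of the 34 probe sets both arrays were above the bound, 13 of them higher and 15 lower on the LYAR-shRNA array, from -0.70 to 1.30 on the log2 scale. In a further 5 both arrays were below it, and in 1 the scramble-shRNA array alone. With values below the bound set to it, 2 of the 29 probe sets above it on either array were higher by 2-fold or more and 0 lower, against 4.74% and 3.78% of all 30769 such probe sets. Of the 8 genes with more than 1 probe set, 7 had probe sets of both signs by listed intensities, and NR1H3 was the exception. The 7 include PPARGC1A, whose probe sets were all below the bound on both arrays and so have no measured sign.

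**Figure D1:**
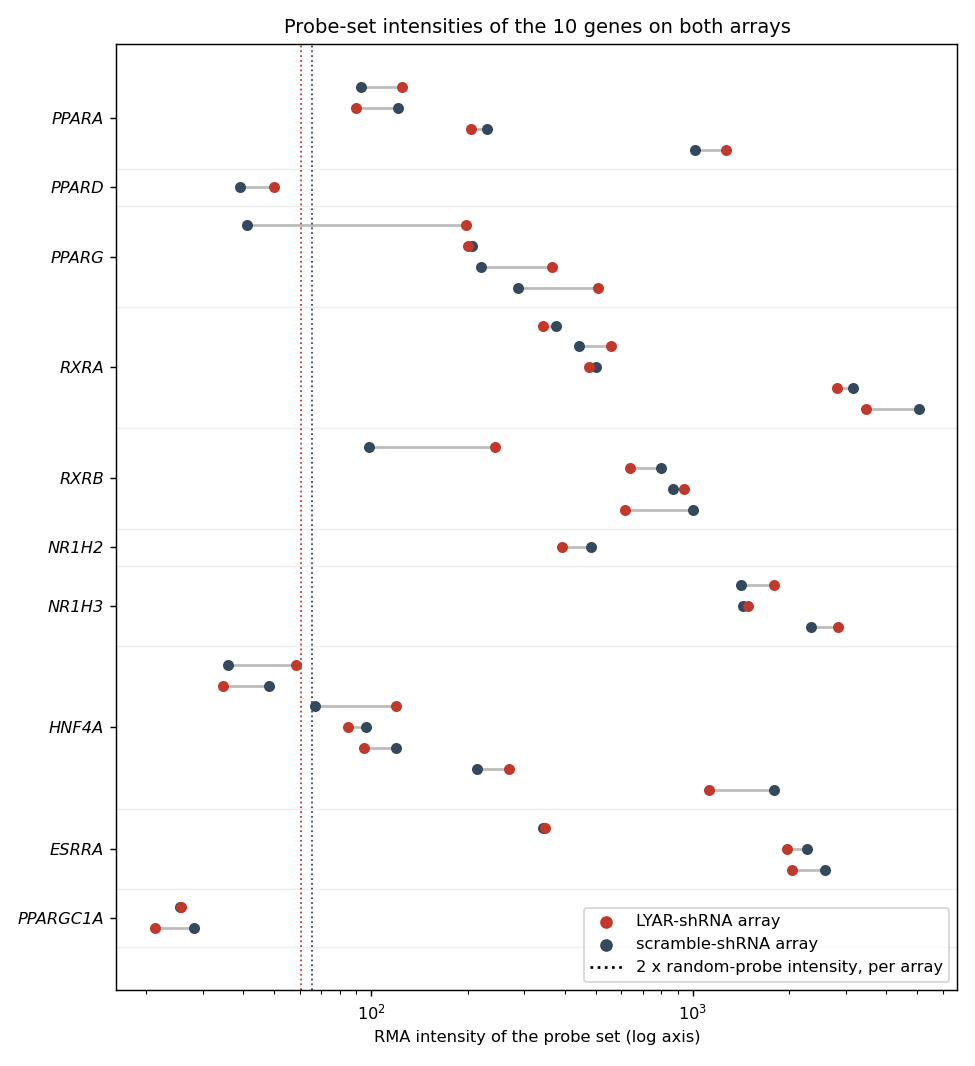
RMA intensity (log axis) of each of the 34 probe sets, grouped by gene, on the LYAR-shRNA array (red) and the scramble-shRNA array (dark blue), joined by a line; each point is 1 array. Dotted lines mark 2 times the random-probe intensity of each array. The longest line belongs to a PPARG probe set at 197 and 41.1, and both PPARGC1A probe sets lie left of the dotted lines.

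**Figure D2:**
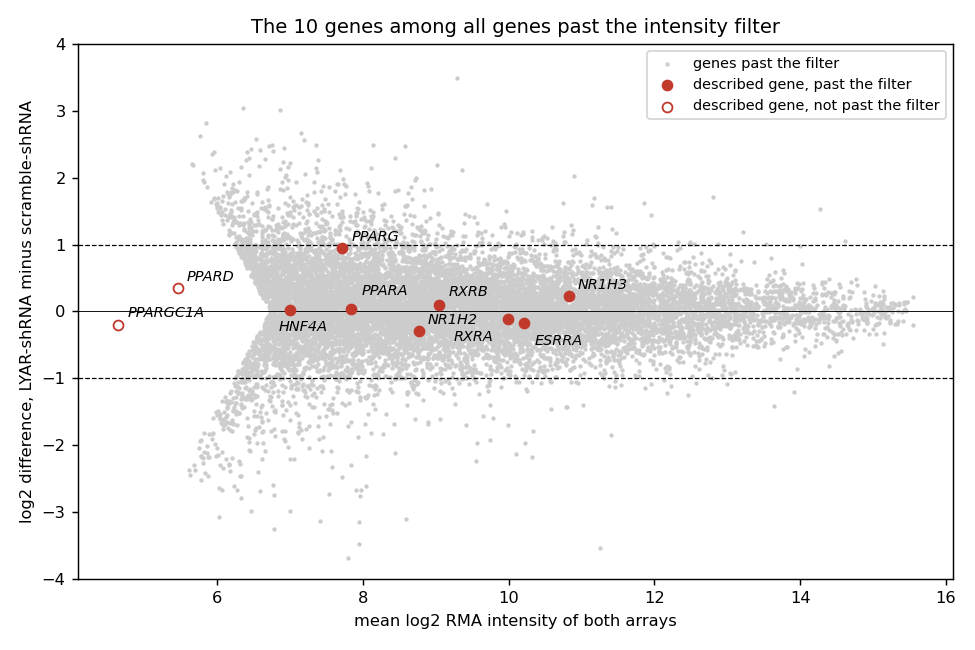
Log2 difference against mean log2 intensity for the 12682 genes that passed the filter (grey) and the 10 described genes (red, open where the gene did not pass). Dashed lines mark 2-fold; the 8 described genes that passed lie between them, and PPARG lies nearest to a line at 0.95.

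Of the PPARs, PPARG, the receptor best known for driving fat cell formation and also present in colon epithelium, showed the largest difference. NM_015869 is the transcript that encodes the longer PPARG2 protein and starts furthest downstream. Its probe set measured 366 with LYAR-shRNA and 220 with scramble-shRNA, a difference of 0.73. AJ698135 measured 508 and 286, a difference of 0.83. AJ563370 measured 197 with LYAR-shRNA against 41.1, below the bound, with scramble-shRNA, and was therefore at least 3.02-fold higher. The probe set for NM_005037, annotated over the whole gene, did not share this: it measured 200 and 206, a difference of -0.04. The gene's mean of 0.95 had an SD of 0.96 between its 4 probe sets, and without the probe set near the random probes the mean was 0.51. In hg18 the transcripts cover chromosome 3 from 12304423 to 12450843. Among the dimmest 4227 genes, where PPARG lies, 20.7% had a larger absolute difference, and probe sets of the same gene differed with a pooled SD of 0.66.

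PPARG is read from several promoters, and the RefSeq annotation of GRCh38.p14 gives 6 start windows for it. The one furthest downstream is shown because PPARG2, to whose transcript a higher probe set is annotated, is made from a start in that region. Probe positions are not annotated, so that probe set may also read exons shared with other PPARG transcripts. Which PPARG transcripts were higher was not tested. Capitals mark the CCAAT box, 13 bases before the start.
PPARG downstream start, chr3:12351167-12351416, plus strand: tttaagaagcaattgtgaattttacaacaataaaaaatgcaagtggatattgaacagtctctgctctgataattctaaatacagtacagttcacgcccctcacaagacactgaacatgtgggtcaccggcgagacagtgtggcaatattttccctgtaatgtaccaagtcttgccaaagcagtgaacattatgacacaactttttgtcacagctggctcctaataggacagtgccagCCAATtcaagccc

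PPARA, the receptor that drives fatty acid oxidation in liver, showed no common direction. BC071932, annotated over 1.95 kb near the end of the gene, measured 1267 and 1016, a difference of 0.32. NM_032644 measured 125 and 92.9, a difference of 0.43. In the opposite direction, BC000052 measured 89.6 and 122 and differed by -0.44. The full-length NM_001001928 measured 204 and 229, a difference of -0.17. The mean was 0.03 with an SD of 0.41 between the 4 probe sets, all on chromosome 22 between 44925162 and 45018317 in hg18. PPARD, a widely expressed PPAR, had 1 probe set at 49.8 and 39.1, below the bound on both arrays, so neither a level nor a fold can be given.

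The RXRs are the shared partners of the PPARs and liver X receptors. For RXRA, BC096246 measured 3459 with LYAR-shRNA and 5068 with scramble-shRNA, a difference of -0.55. BC110998, which is annotated over almost the same stretch, measured 2817 and 3164, a difference of only -0.17. NM_002957 and BC007925 lay closer to 0, at -0.13 and -0.07. U66306, annotated over the last 3.78 kb, went the other way, with 558 and 443, a difference of 0.33. Over the 5, which cover chromosome 9 from 136358167 to 136472252 in hg18, RXRA averaged -0.12 with an SD of 0.31, so the mean was smaller than the spread between them.

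RXRB held the largest disagreement within a gene among those with all probe sets measured. X66424 measured 243 with LYAR-shRNA and 98.7 with scramble-shRNA, 2.46-fold higher and a difference of 1.30. BC001167 measured 619 and 1003, a difference of -0.70. AB209244 lay at -0.32 and NM_021976, the RefSeq transcript, at 0.11 with 937 and 869. The mean of 0.10 therefore stands against an SD of 0.87, and RXRB, on chromosome 6 between 33269342 and 33276410 in hg18, had no settled direction.

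The liver X receptors, sensors of cholesterol excess, leaned apart. NR1H3 (LXR alpha) was higher on the LYAR-shRNA array in all 3 probe sets. BC008819 measured 1794 and 1410, a difference of 0.35, and NM_005693 measured 2832 and 2327, a difference of 0.28. CR618031, annotated from a more upstream start, measured 1485 and 1440, a difference of 0.04. The mean of 0.23 (SD 0.16, 3 probe sets) corresponds to 1.17-fold, and 51.9% of the brightest 4228 genes had a larger absolute difference. NR1H2 (LXR beta), with 1 probe set on chromosome 19 from 55571514 to 55578051 in hg18, measured 394 and 482, a difference of -0.29. That is smaller than the pooled SD of 0.40 among probe sets of the same gene in the middle 4227 genes, where it lies.

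HNF4A averaged 0.03, with an SD of 0.60 between its 7 probe sets. Among the dimmest 4227 genes, where HNF4A lies, probe sets of the same gene differed with a pooled SD of 0.66. By listed intensities, the 7 probe sets separated by the start of the transcript they are annotated to. HNF4A is transcribed from a downstream promoter (P1) and an upstream one (P2), and the isoforms from these starts differ at the amino end of the protein. The 3 probe sets annotated from 42417503 or 42417854 on chromosome 20 in hg18, the upstream start, were all higher on the LYAR-shRNA array. The 4 annotated from 42463337 to 42463371, the downstream start, were all lower. However, NM_001030003 from the upstream start and NM_178850 from the downstream one were below the bound on both arrays, so their signs are not measured. Only transcript spans are annotated, not the positions of the 3 probes of a set, so a probe set may also read exons that both kinds of transcript share. The split was made after the values were seen.

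Both HNF4A start windows are shown because the probe sets divide by them. The annotated starts lie 45540 bases apart in GRCh38.p14 and 45483 bases apart in hg18 for NM_001030003 and NM_000457. Capitals mark TTAAC, part of the recognition site of HNF1 factors, known regulators of this gene, at 67 bases before the upstream start and at 72 and 65 before the downstream one.
HNF4A upstream start, chr20:44355449-44355698, plus strand: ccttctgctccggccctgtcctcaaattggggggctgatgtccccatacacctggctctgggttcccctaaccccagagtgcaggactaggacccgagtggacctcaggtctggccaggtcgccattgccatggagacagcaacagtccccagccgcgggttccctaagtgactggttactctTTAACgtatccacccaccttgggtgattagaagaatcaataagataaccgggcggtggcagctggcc
HNF4A downstream start, chr20:44400989-44401238, plus strand: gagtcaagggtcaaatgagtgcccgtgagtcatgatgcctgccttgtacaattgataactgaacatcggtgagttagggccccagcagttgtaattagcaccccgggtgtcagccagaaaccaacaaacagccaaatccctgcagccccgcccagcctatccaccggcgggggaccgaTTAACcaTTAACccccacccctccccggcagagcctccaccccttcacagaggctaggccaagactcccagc

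From the upstream start, AK096973, annotated over only the first 2.39 kb, measured 269 with LYAR-shRNA and 213 with scramble-shRNA, a difference of 0.34. NM_001030004 measured 119 and 66.9, a difference of 0.84, its scramble-shRNA value being just above the bound of 65.4. NM_001030003 stood at 58.4 and 35.9, below the bound on both arrays. From the downstream start, NM_000457 measured 1122 and 1787, a difference of -0.67. X87870 measured 95.0 and 119.96, a difference of -0.34. X87871 measured 84.7 and 96.5, a difference of -0.19, and NM_178850 was below the bound on both arrays at 34.5 and 48.2. Only AK096973, NM_000457 and X87870 were above 3 times the random intensity on both arrays, at 0.34, -0.67 and -0.34. AK096973 was then the only probe set left from the upstream start. Since by listed intensities every upstream probe set was higher and every downstream one lower, any subset keeps the division, so the stricter bound does not test it. None of the 7 reached 2-fold.

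**Figure D3:**
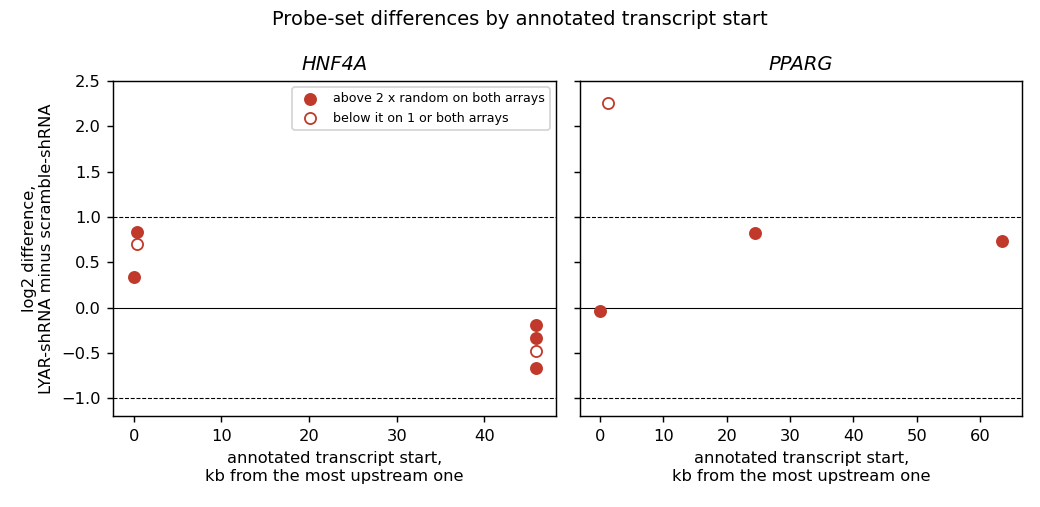
Log2 difference of each probe set of HNF4A (left, 7) and PPARG (right, 4) against the distance in kb of its annotated transcript start from the most upstream one; open points were below 2 times the random intensity on 1 or both arrays. HNF4A points near 0 kb are above 0 and those near 46 kb below it, while PPARG shows both a value near 0 and one of 2.26 at its upstream end.

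ESRRA, the receptor of mitochondrial genes, was lower in 2 of its 3 probe sets. L38487 measured 2032 and 2585, a difference of -0.35, and NM_004451 measured 1966 and 2276, a difference of -0.21. BC093720 measured 347 and 343, a difference of 0.02. The mean was -0.18 (SD 0.19, 3 probe sets, chromosome 11, 63829619 to 63840786 in hg18), and 60.8% of the brightest 4228 genes had a larger absolute difference. Its coactivator PPARGC1A was not detectable on either array. Both of its probe sets, NM_013261 at 21.3 and 28.1 and AB061325 at 25.6 and 25.5, were below the mean of the random probes.

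All 10 genes have start windows in the RefSeq table, 23 in all. In the 250 bases before the start, both strands searched, the element AGGTCA, read singly or in pairs by these receptors, was found in 4 member windows, those of NR1H3 and PPARG, and in 12.1% of all 34943 windows. A direct repeat of the same letters with 1 base between, the arrangement PPAR and RXR pairs bind, was in 0 member windows and 0.0172% of all, and TCAAGGTCA, which holds AGGTCA and is bound by ESRRA, in 0 and 0.320%. TTAAC was found in windows of HNF4A, PPARG and RXRA and in 19.8% of all, and CCAAT in 6 member windows, of HNF4A, NR1H3, PPARA, PPARD, PPARG and RXRB, and in 32% of all. ACGTG was in 4 member windows, of PPARG, PPARGC1A and RXRB, and in 18.5% of all, and CACGTG, which holds it, in 1 window, of PPARGC1A, and in 6.32%. A match is only a run of letters.

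Set among the whole receptor family, PPARG had the highest difference and NR1D1 the lowest. Together with 39 other nuclear receptor genes they make up 48 receptors, of which 22 passed the filter. NR1D1 (REV-ERB alpha), a heme-sensing repressor of the circadian clock, was the 1 receptor past 2-fold. It measured 697 with LYAR-shRNA against 2399 with scramble-shRNA, a difference of -1.78 from 1 probe set. Across all passing genes 3.56% were lower by 2-fold or more. NR4A1, an immediate-early orphan receptor, differed by -0.67 and NR2F6, an orphan receptor of the COUP family, by -0.62. On the higher side, VDR, the vitamin D receptor and a partner of RXR, measured 1122 and 695, a difference of 0.69 that both probe sets showed (0.65 and 0.73). NR2F2, an orphan receptor, differed by 0.60, and NR2C2 had a mean of 0.93 from probe sets at 1.93 and, below the bound on 1 or both arrays, at -0.07. Of the 14 other receptors that passed, 7 were higher and 7 lower. Among close relatives of the described receptors, all named outside the naming rule, RXRG, NR1H4, HNF4G and ESRRG had every probe set below the bound on at least 1 array. ESRRB did not pass the filter either, although 2 of its 3 probe sets were above the bound on both arrays, the brighter at 90.2 and 72.5.

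**Figure D4:**
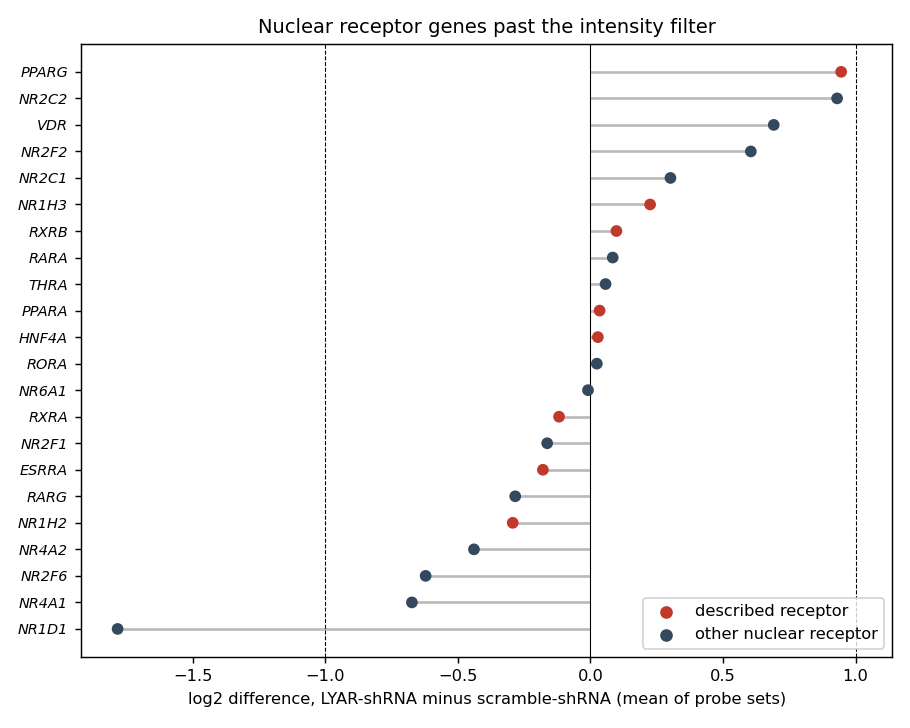
Log2 difference (mean of probe sets) of the 22 nuclear receptor genes that passed the intensity filter, sorted; red points are the 8 described receptors and dark points the other 14, each from 1 array per group. Dashed lines mark 2-fold. NR1D1 at -1.78 is the only point outside them.

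Coregulators, the proteins that receptors recruit to switch genes on or off, were measured for 36 genes, of which 26 passed. Past 2-fold stood 2 higher and 1 lower gene, and 23 were under it, where 5.06% of all passing genes were higher by as much and 3.56% lower. EP300 and HELZ2 lie among the dimmest genes, where these shares were 10.6% and 7.97%. NCOA1 lies in the middle group, where 3.48% were higher by 2-fold or more. NCOA1 (SRC-1), a histone acetyltransferase coactivator, measured 557 and 238, a difference of 1.23 with 1.11 to 1.35 over its 3 probe sets. EP300, another acetyltransferase, measured 174 and 82.9, a difference of 1.07 from 1 probe set. NCOA3 had a mean of 0.95 from probe sets between 0.17 and 1.87. HELZ2, a helicase described as a coactivator of PPARs, differed by -1.06 with 167 and 349. NRIP1, a corepressor, had a mean of -0.81 from probe sets of opposite sign, at 0.53 and, not measured on both arrays, at -2.15. The list median was 0.10 over all measured genes and 0.14 over those that passed, where all passing genes had 0.05.

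Genes that make or deliver the ligands held the widest range. Of 32 genes 13 passed. By listed intensities 5 were past 2-fold higher, 2 past 2-fold lower and 6 between, with a probe set below the bound in 3 of the 5. The shares over all passing genes were 5.06% and 3.56%. Every gene past 2-fold except CRABP2 lies among the dimmest genes, where they were 10.6% and 7.97%. The 7 past 2-fold came to 4 with the brightest probe set of each gene and to 3 with the series table. CRABP2, which carries retinoic acid to its receptor in the nucleus, measured 33806 with LYAR-shRNA and 11650 with scramble-shRNA, a difference of 1.54 from 1 probe set. It lies among the brightest genes, where 1.16% were higher by 2-fold or more. CYP26A1, which breaks retinoic acid down, measured 163 and 68.0, the latter just above the bound, a difference of 1.26. RBP4, the retinol carrier of plasma, stood at 356 and, below the bound, 60.3 and was at least 5.43-fold higher and ALOX15, a lipoxygenase, at least 1.90-fold. FABP3, which binds fatty acids in the cell, measured 170 and 104 in its probe set above the bound on both arrays, a difference of 0.72. Its other probe set, below the bound on the control array, was at least 1.06-fold higher. ALDH1A3, which makes retinoic acid, measured 168 and 408, a difference of -1.28, with both probe sets lower (-1.44 and -1.13). CRABP1, a second retinoic acid binding protein, differed by -1.21 with 113 and 260. Retinoid genes thus stood at both ends, and the list median was 0.06 over all 32 genes and 0.20 over the 13. RBP4, ALOX15, FABP3 and CYP26A1 passed only through the LYAR-shRNA array, where they were high. With the filter set on the mean of both arrays, an alternative chosen after seeing the data, 9 passed. Of these, 4 were higher and 5 lower, with a median of -0.19.

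Target genes of the PPARs, mostly enzymes of fatty acid handling, leaned toward the LYAR-shRNA array. Of 32 measured genes 18 passed, 15 of them higher and 3 lower. Past 2-fold were 3, all of them higher, where 5.06% of all passing genes were higher by as much. The median was 0.20 over all 32 and 0.27 over the 18, against 0.02 for all measured genes and 0.05 for all passing genes, 54.6% of which were higher. TXNIP, a thioredoxin inhibitor that many signals besides PPARs induce, measured 4682 and 1580, a difference of 1.57. ACOT1, an acyl-CoA thioesterase, measured 1059 and 423, a difference of 1.32, and its near-identical paralog can share probes. EHHADH, an enzyme of peroxisomal oxidation, had a mean of 1.12, but its probe set measured on both arrays differed by only 0.22. The other, below the bound on the control array, stood at 205 and 51.1. At the low end stood UCP2, a mitochondrial carrier, at -0.38 and CREB3L3, a transcription factor of liver and gut, at -0.34. CPT1B, the muscle form of the mitochondrial fatty acyl importer, measured 1278 and 1290. Well-known targets outside the naming rule were dim: ANGPTL4, an inhibitor of lipoprotein lipase, measured 109 and 82.2, and PLIN2, a lipid droplet protein, lay below the bound on both arrays at 23.2 and 38.3. Also outside that rule, SLC25A20, the carnitine carrier, differed by 0.55, ACADVL by 0.29 and ACADM by 0.23, the latter 2 being dehydrogenases of fatty acid oxidation. Some genes that did not pass, again outside the rule, had 1 probe set measured on both arrays. It was lower for CPT1A (-0.11), CD36 (-0.45) and UCP3 (-0.91), and higher for PDK4 (0.66) and CYP4A11 (1.40).

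Target genes of the liver X receptors leaned the other way. Of 21 genes 14 passed, 5 higher and 9 lower, with 1 lower gene past 2-fold. The share lower by as much was 3.56% over all passing genes. SCD, the stearoyl-CoA desaturase, differed by -1.68. SREBF1, the master regulator of fatty acid synthesis, measured 781 and 1528, a difference of -0.97, and APOE, a lipoprotein component, measured 91.4 and 155, a difference of -0.76. On the higher side, TTC39B stood at 0.19 with probe sets of both signs and the cholesterol carrier NPC2 at 0.15. The sterol exporters ABCA1 and ABCG1, named outside the rule as the best-known targets, had all their probe sets below the bound on at least 1 array. The median was -0.13 over all 21 genes and -0.27 over the 14.

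Intestinal target genes of HNF4A were mostly dim on these arrays. Of 30 genes 16 were below the bound on both arrays, among them APOB and MTTP, of lipoprotein assembly, which were named outside the rule. The 9 that passed were all higher on the LYAR-shRNA array in their mean over probe sets, 1 of them past 2-fold. Over all passing genes 54.6% were higher, and 5.06% by 2-fold or more. DPP4, a peptidase of the intestinal brush border, measured 234 and 74.7, a difference of 1.65 from 1 probe set. CLDN2, a pore-forming claudin, measured 2666 and 1399, a difference of 0.93 and from 0.54 to 1.32 over its 3 probe sets. SERPINA1, a protease inhibitor, had a mean of 0.89 and 1.22 in its 1 probe set measured on both arrays. At the lower end of the 9 stood CDH17, an intestinal cadherin, at 0.49 from probe sets of both signs (-0.09 and 1.07), CDX2, a master regulator of intestinal identity, at 0.30, and LGALS4, a galectin, at 0.10. The median was 0.67 over the 9 but 0.03 over all 30, and -0.01 over all 30 with the brightest probe set, and a dim gene can pass through the array where it is high. With the filter set on the mean of both arrays, an alternative chosen after seeing the data, 8 passed, all 8 higher, with a median of 0.59.

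Mitochondrial target genes of ESRRA and PGC-1 were bright and close to even. Of 30 measured genes 28 passed, 13 higher and 15 lower, with 27 under 2-fold, and NDUFA4 was not found by name. They had a median of -0.02. SIRT5, a mitochondrial deacylase, was the 1 gene past 2-fold in its mean over probe sets, at 1.05. However, 1 of its 2 probe sets was not above the bound on both arrays. It lies among the dimmest genes, where 10.6% were higher by 2-fold or more, against 5.06% of all passing genes. SDHA, a subunit of respiratory complex II, measured 3482 and 6300, a difference of -0.86 from 1 probe set. IDH3A, of the citrate cycle, differed by -0.47 with -0.52 to -0.40 over its 3 probe sets, and PERM1, a muscle partner of PGC-1, by -0.56. Citrate synthase (CS) differed by 0.27, and SOD2, the mitochondrial superoxide dismutase, by 0.37 from probe sets of both signs.

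**Figure D5:**
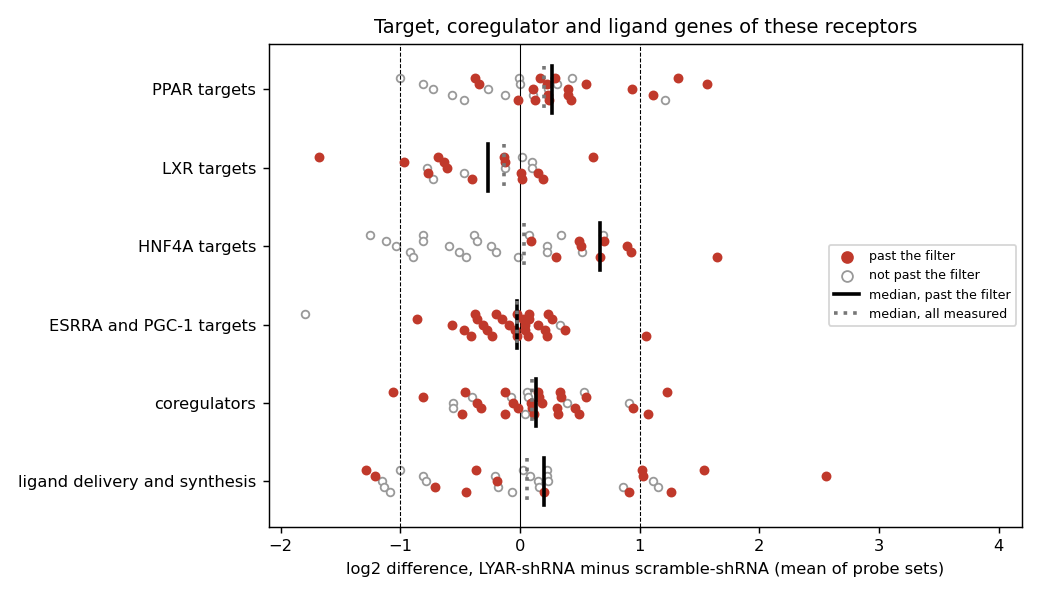
Log2 difference of each gene in 6 lists of targets, coregulators and ligand genes; red points passed the intensity filter and open points did not, with the median of the passing genes (solid bar) and of all measured genes (dotted bar). Dashed lines mark 2-fold. The passing HNF4A targets all lie above 0, with their solid bar at 0.67 and the dotted bar at 0.03.

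With 2 arrays there is no pattern across samples by which other genes could be likened to these 10, and none is named on that ground.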

How the data were processed

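Total RNA of 1 LYAR-shRNA and 1 scramble-shRNA sample was labelled with Cy3 and hybridised to Roche NimbleGen arrays, per the labels' protocols. The authors deposited linear intensities made with RMA, a summary per probe set, per the submitters' processing notes. Its settings, and whether other arrays entered it, are not stated in the sources. If both arrays were brought to a shared distribution, a shift of most genes in 1 direction would not be visible. Probe sets, 45031 of 45033 made of 3 probes, are placed in hg18 per the file headers.

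Gene names were brought up to date by gene ID from RefSeq (GRCh38.p14), which held 90.6% of the 42947 probe sets with a gene ID. Promoter windows are from that table too. For each gene and array, log2 intensities were averaged over probe sets with no pseudocount, and the difference taken as LYAR-shRNA minus scramble-shRNA. A bound was set at 2 times the mean of the 5000 random probes, and folds against it are written as at least N-fold. Genes past the filter were ranked by mean level into 3 groups of 4227, 4227 and 4228 genes. A gene's own error cannot be had from 1 array per group, so no p-value is given, and the number of arrays limits the precision. Over genes that passed, probe sets of the same gene had a pooled SD of 0.46. The scripts, in Python 3.11.15 with numpy 2.4.6, pandas 2.3.3 and statsmodels 0.14.6, were tested on simulated data.

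The members, the lists of companion genes and the tests were chosen with earlier results of these data known. Named genes were the 10 members and, of each list, passing genes at or past 2-fold and the 3 passing genes at each end; markers are given as counts, and others are said to lie outside this rule. A few genes that the rule would name are not reported here. Alternatives were the brightest probe set, measured probe sets only, the series table, median centring, a lowess trend removed, quantile normalization, a pseudocount of 32 and other filters. The series table holds 25 of the 34 member probe sets, with values equal to the array files within 0.0403. The deposited standard-error column was not used.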

Additional observations from a re-analysis of the deposited data

How the results depend on the processing

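None of the 8 measured genes reached 2-fold under any alternative run, and PPARD and PPARGC1A had no measured fold to set against it. PPARG ranged from 0.51 to 0.95, NR1H3 from 0.17 to 0.28, NR1H2 from -0.37 to -0.27 and ESRRA from -0.35 to -0.18, each keeping its sign. The sign changed for PPARA (-0.04 to 0.32), HNF4A (-0.67 to 0.03) and PPARGC1A (-0.25 to 0.01). With the brightest probe set RXRA moved to -0.55 and HNF4A to -0.67, each then resting on 1 probe set. With no intensity filter 1167 of 23619 genes were at least 2-fold higher and 1025 lower, against 642 and 452 of the 12682 past it. With a pseudocount of 32 the counts were 408 and 299 of the same 12682. Among the 13252 genes above the bound on both arrays 454 were at least 2-fold higher and 270 lower. The median of the HNF4A targets was 0.67 for genes past the filter and 0.59 with the filter on the mean of both arrays (chosen after seeing the data), against 0.03 for all measured genes and -0.02 with the lowess trend removed. The median of the LXR targets ranged from -0.29 (brightest probe set) to -0.13, and that of the ESRRA and PGC-1 targets from -0.14 (brightest probe set) to -0.02. Those of the PPAR targets (0.15 to 0.27) and coregulators (0.06 to 0.16) kept their sign, while those of the ligand genes (-0.19 to 0.20) and other nuclear receptors (-0.16 to 0.01) did not. The HNF4A division by start kept its signs with quantile normalization, with centring, without the lowess trend and with the pseudocount, all chosen after seeing the data. These settings could hardly change the signs, so that outcome does not bear on the division. A pseudocount cannot reverse a sign, and the lowess shift lay between -0.10 and 0.02, where the smallest of these differences in size was -0.19. Member probe sets measured on both arrays numbered 28, and 24 with the bound at 3 times the random intensity. No paired analysis was possible because each group has 1 array, and no array could be left out. Signal near the random probes limits PPARD, PPARGC1A and the dimmer probe sets of HNF4A and PPARG.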
